A study of Mus musculus with 13 samples.

Results

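Chemokines are small secreted or shed proteins that steer the movement of cells, and chemokine receptors are the membrane proteins that read them. The genes described here are all protein-coding mouse genes whose symbol begins with Ccl, Cxcl, Ccr or Cxcr followed by a number. This rule took 52 of the 52550 genes counted, 35 ligands and 17 receptors, and 49 of them had at least 1 count in 13 RNA-seq libraries. No count fell on Ccl21b, Cxcl15 or Cxcr1. The pattern also met 3 genes that are not annotated as protein-coding (Cxcl11, a polymorphic pseudogene in the annotation, and the pseudogenes Ccl19-ps1 and Ccl19-ps3), which were left out. The libraries hold poly-A RNA of retinal cells that were sorted for the surface protein Thy1.2 and are labelled retinal ganglion cells (RGCs), the neurons whose axons form the optic nerve. The development dataset covers wild type mice at postnatal day (P) 1 (3 libraries), P14 (3) and P21 (2). The knockout dataset covers female Kdm6a f/f mice, whose exon 3 of Kdm6a, the gene of an H3K27 demethylase also called UTX, is flanked by loxP sites. These mice received AAV2-Cre (2 libraries, labelled as the knockout) or AAV2-GFP (3, the control) into the vitreous and were taken 3 days after optic nerve crush, which all 5 libraries share. Their label gives P42, while the study's methods place injection and crush later. Thy1 also lies on mouse T cells, and AAV2-Cre reaches the eye by injection of virus, with no driver line that would restrict Cre to a cell type. The sources used here do not say how many mice stand behind a library, so p-values measure the spread between libraries.

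Chemokines fall into families by the spacing of their leading cysteines, CC (Ccl genes) and CXC (Cxcl genes), and signal through G protein-coupled receptors of the matching family. Inflammatory chemokines are induced in injured or infected tissue and draw monocytes, neutrophils and activated lymphocytes, whereas homeostatic chemokines are made without injury and place cells during development or within lymphoid organs. In the central nervous system Cxcl12 and its receptor Cxcr4 guide migrating neurons and growing axons, and microglia and macrophages are well-known sources of inflammatory CC ligands.

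Total counts per library ran from 30357454 to 38812917 in development and from 13637602 to 16070720 in the knockout dataset. Levels are given as CPM, counts per 1000000 counts of a library after TMM scaling (trimmed mean of M values), and levels of different genes are compared only per kilobase of exon. Kdm6a lay at 110.4 and 112 CPM in the libraries labelled AAV2-Cre and at 115, 96.5 and 119 CPM in AAV2-GFP (log2 fold change -0.02, SE 0.15, edgeR quasi-likelihood test, Benjamini-Hochberg adjusted p = 0.963), and counts summed over all exons of the gene do not check the loss of exon 3. Listed RGC markers took 1.08% of counts at P1 and 0.105% at P14, 0.0725% and 0.0279% in P21 replicates 1 and 2, 0.0314% in AAV2-GFP and 0.0337% in AAV2-Cre, where Pou4f2, an RGC transcription factor, was at 0 in both libraries. Microglia and macrophage markers took 0.00363%, 0.0401%, 0.0112%, 0.801% and 0.902% of counts in the same order of groups. P1 replicate 3 stood apart from the other P1 libraries, with Müller glia markers at 0.183% of counts against up to 0.494%. In bulk RNA, fewer cells of a type and less RNA per cell cannot be told apart.

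The family took the smallest share of counts at P1 and the largest after injury. Members held 0.00984% to 0.0106% of the counts of a library at P1, 0.0355% to 0.0365% at P14, 0.0259% to 0.0267% at P21, 0.149% to 0.174% in AAV2-GFP and 0.239% to 0.255% in AAV2-Cre. These ranges did not overlap between any of the 5 groups. Summed over members, the level was 109 ± 3.75 CPM in P1 libraries (SD, n = 3), 355 ± 4.44 CPM in those of P14 (SD, n = 3), 261 ± 2.03 CPM in those of P21 (SD, n = 2), 1557 ± 96.3 CPM in AAV2-GFP (SD, n = 3) and 2510 ± 149 CPM in AAV2-Cre (SD, n = 2). Receptors made up 15.2 CPM of the sum at P1 and 18.5 CPM at P21, but 848 ± 21.3 CPM in AAV2-GFP and 1295 ± 2.37 CPM in AAV2-Cre. These sums are not per kilobase, so they compare receptors between groups and not receptors with ligands. Members with a mean of at least 1 CPM numbered 8 at P1, 15 at P14, 8 at P21, 32 in AAV2-GFP and 34 in AAV2-Cre. In 12 members no library reached 1 CPM.

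**Figure D1:**
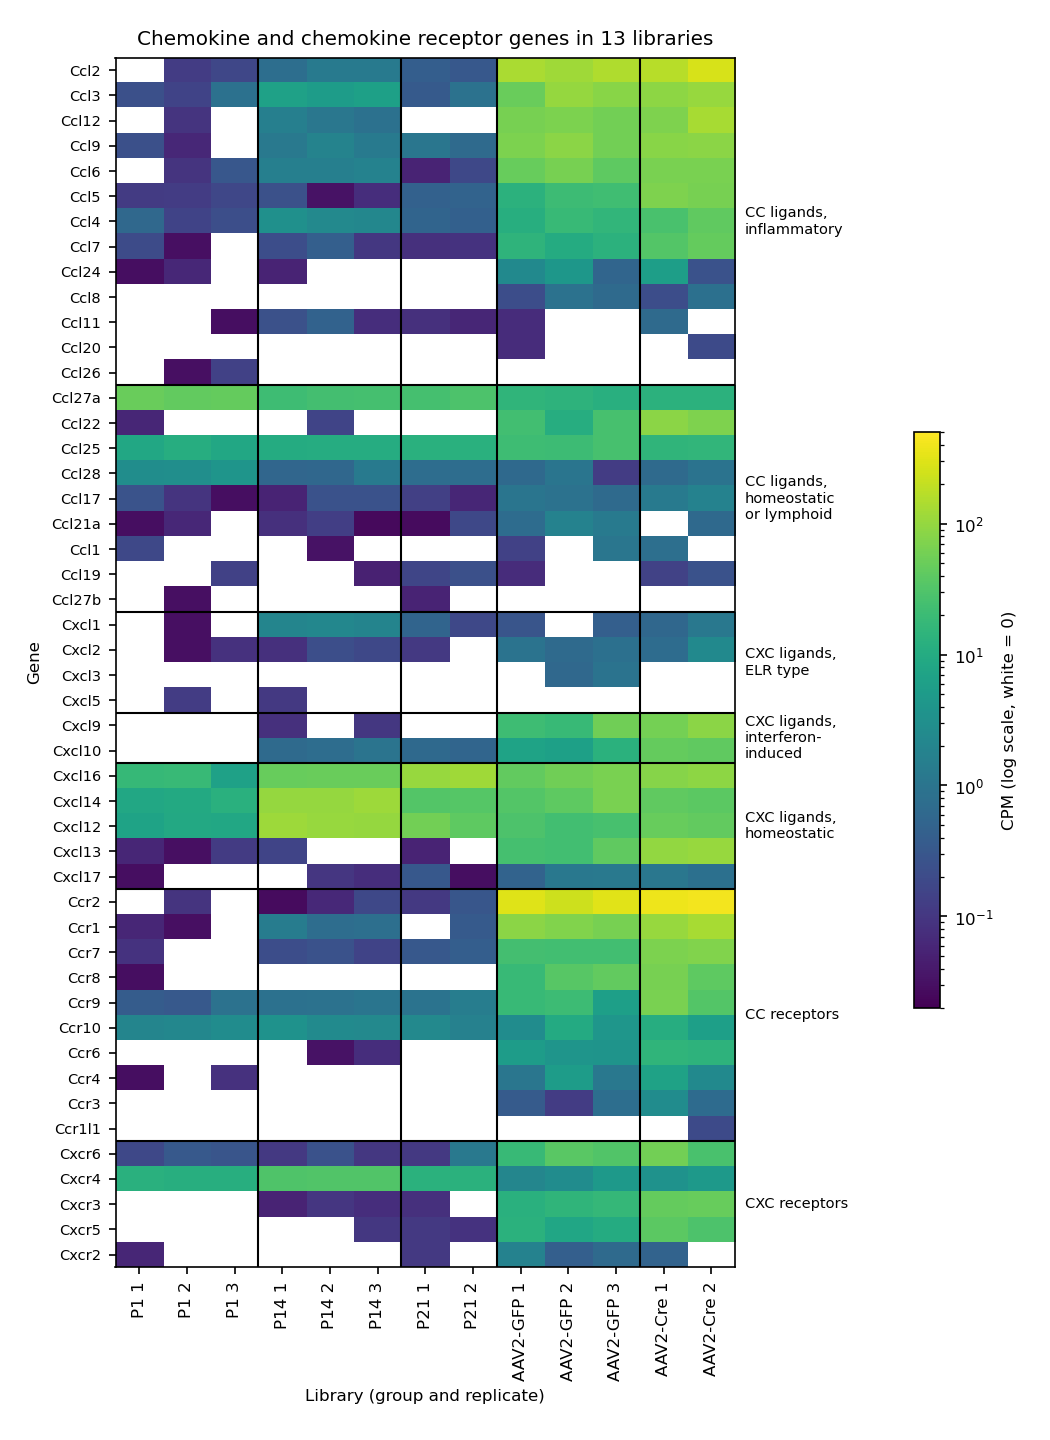
Level of 48 members with at least 1 count (rows, grouped by role) in each of the 13 libraries (columns, grouped by age or virus), in CPM on a logarithmic color scale, with white for a count of 0. Most rows of inflammatory CC ligands and CC receptors are dark or white in the 8 development columns and brighter in the 5 knockout columns. Brighter colors are higher levels, and Cxcr4 and Ccl27a run the other way.

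Per kilobase of exon, different members led in each group. At P1 Ccl27a, a ligand known from skin that binds Ccr10, stood at 19.6 CPM per kb, 45.2% of the sum over members, ahead of Cxcr4 (6.54 CPM per kb), Cxcl14 (5.58 CPM per kb) and Cxcl16 (4.71 CPM per kb, SD 2.17). At P14 Cxcl14, a ligand of epithelia and brain whose receptor is debated, led with 57.8 CPM per kb and 41.9% of the sum, followed by Cxcr4 at 17.6 and Cxcl16 at 16.1 CPM per kb. At P21 Cxcl16, a membrane-anchored ligand of Cxcr6 that proteases can shed, led with 37.3 CPM per kb, ahead of Cxcl14 at 18.9 and Ccl27a at 11.6 CPM per kb. In AAV2-GFP the leaders were Ccl2, the main ligand of monocytes, at 119.9 CPM per kb, Ccl12, another ligand of the monocyte receptor Ccr2, at 115 CPM per kb, and Ccl3, a macrophage product that binds Ccr1, at 101 CPM per kb. The same ligands led in AAV2-Cre, with Ccl2 at 192, Ccl12 at 187 and Ccl3 at 127 CPM per kb, followed by the B cell attractant Cxcl13 at 88.7 CPM per kb. In AAV2-GFP the gap between Ccl2 and Ccl12 was smaller than the spread between libraries.

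Members lie in clusters in the genome (GRCm38, GENCODE annotation). Neighbors with gaps of at most 1 Mb formed 5 clusters of at least 3 members, with 28 members in all. CC ligands occupy chr11:82035571-82305690 (Ccl2, Ccl7, Ccl11, Ccl12, Ccl8 and Ccl1) and chr11:83525778-83664683 (Ccl5, Ccl9, Ccl6, Ccl3 and Ccl4). All of these were grouped as inflammatory except Ccl1, which was grouped as homeostatic or lymphoid. Ligands of the neutrophil receptors, with the sequence Glu-Leu-Arg (ELR) before their cysteines, lie at chr5:90759360-90905938. The receptors Ccr9, Cxcr6, Ccr1, Ccr1l1, Ccr3 and Ccr2 lie near each other on chromosome 9. Ccl27a, Ccl27b, Ccl19, Ccl21a and Ccl21b lie at chr4:41769467-42773993, where near-identical copies of Ccl21 and Ccl27 can split reads, so their counts are uncertain.

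Promoters are shown for 4 ligands that the results below turn on, Cxcl10, Ccl22 and Cxcl13, which were all higher in AAV2-Cre than in AAV2-GFP, and Cxcl1, which was higher at P14 than at P1. Each is the stretch of 250 bases before the annotated gene start in RefSeq (GRCm38.p6), printed 5′ to 3′ on the strand of the gene. Capitals mark matches on either strand to the letters GAAANNGAAA, the core of the element bound by interferon-activated factors, or GGGANNNNCC, a pattern of sites for NF-kB, where N is any base.
Cxcl10, chr5:92348890-92349139, minus strand: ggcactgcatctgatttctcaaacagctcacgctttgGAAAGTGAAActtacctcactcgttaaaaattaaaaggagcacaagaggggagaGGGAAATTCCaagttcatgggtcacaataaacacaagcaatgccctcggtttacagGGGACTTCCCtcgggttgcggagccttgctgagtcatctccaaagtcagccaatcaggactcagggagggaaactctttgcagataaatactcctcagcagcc
Ccl22, chr8:94745434-94745683, plus strand: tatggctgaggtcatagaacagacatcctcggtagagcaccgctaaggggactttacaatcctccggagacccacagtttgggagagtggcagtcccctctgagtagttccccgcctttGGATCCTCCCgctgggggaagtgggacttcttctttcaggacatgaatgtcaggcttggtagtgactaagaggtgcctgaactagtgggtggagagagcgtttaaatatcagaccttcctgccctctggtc
Cxcl13, chr5:95956689-95956938, plus strand: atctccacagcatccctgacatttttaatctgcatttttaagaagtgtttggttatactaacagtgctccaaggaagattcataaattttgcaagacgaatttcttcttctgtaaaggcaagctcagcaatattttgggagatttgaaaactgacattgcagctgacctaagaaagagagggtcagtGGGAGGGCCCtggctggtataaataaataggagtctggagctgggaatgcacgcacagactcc
Cxcl1, chr5:90890995-90891244, plus strand: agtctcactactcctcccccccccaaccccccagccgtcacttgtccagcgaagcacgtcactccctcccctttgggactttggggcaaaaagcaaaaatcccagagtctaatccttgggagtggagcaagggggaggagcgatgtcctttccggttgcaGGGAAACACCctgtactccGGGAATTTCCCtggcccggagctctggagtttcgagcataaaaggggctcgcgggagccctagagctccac
The Cxcl10 promoter held the interferon letters once, 213 bases before the start, and the NF-kB letters 159 and 103 bases before it. Ccl22 and Cxcl13 each held the NF-kB letters, 131 and 63 bases before the start, and Cxcl1 held them 90 and 71 bases before it. RefSeq promoters were found for 38 of the 52 members, and both patterns were searched in the 250 bases before the start. The NF-kB letters occurred in 18 of these members (47.4%) against 19.7% of 27025 genes, and the interferon letters in 3 members (7.89%: Ccl19, Cxcl10 and Cxcl14) against 3.46% of genes. A match describes letters and does not show that a factor binds there.

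The first developmental comparison asks how the sorted cells changed from P1, when RGCs still grow axons readily, to P14. Homeostatic CXC ligands and Cxcr4 rose, as did inflammatory CC ligands from near 0, and Ccl27a and Ccl28 fell. Of 22 members tested, 15 were higher at P14 and 2 lower (adjusted p under 0.05 at any fold), against 33.6% of 20890 genes called higher and 33.6% called lower. The other 30 members were too low to be tested, and a member that passed this filter only through the age at which it is high had to differ. The median log2 fold change of the tested members was 3.13, against -0.01 over all genes tested. With at least 10 counts required in every library, 9 members were tested and the median was 0.75, with 4 members higher and 2 lower at P14 against 36.9% and 37.5% of 15954 genes. In 15 of the 22 every P14 library lay above every P1 library and in 2 every P14 library lay below, against 38.0% and 36.0% of the genes tested. From P14 to P21, 2 members were higher and 9 lower of the same 22, against 14.6% of genes called higher and 19.3% called lower, with a median of -0.87. With at least 10 counts in every library 2 were higher and 3 lower of 9, against 18.8% and 22.1% of genes, with a median of -0.11. Both comparisons share the P14 libraries.

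Cxcl12 and its receptor Cxcr4 both peaked at P14. Cxcl12 (chr6:117168535-117181367) lay at 7.09, 8.94 and 8.69 CPM in the P1 libraries, at 114, 106 and 102 CPM in those of P14 and at 59.0 and 40.9 CPM in those of P21. No library of an age overlapped with those of another age. The log2 fold change was 3.68 from P1 to P14 (SE 0.14, edgeR quasi-likelihood test, Benjamini-Hochberg adjusted p = 1.91e-08) and -1.05 from P14 to P21 (SE 0.14, adjusted p = 0.000403). Cxcr4 (chr1:128588199-128592293) lay at 12.6, 11.5 and 11.4 CPM in the P1 libraries, rose to 31.2, 32.4 and 32.1 CPM by P14 and was back at 12.8 and 12.9 CPM by P21. The P21 libraries were thus just above those of P1, and the P14 libraries far above both. Its log2 fold changes were 1.40 (SE 0.07, edgeR adjusted p = 1.22e-07) and -1.25 (SE 0.08, edgeR adjusted p = 1.29e-05).

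Cxcl14 (chr13:56288643-56296551) had the same course, with 8.59, 9.52 and 12.5 CPM in the P1 libraries, 101, 102 and 114 CPM by P14 and 33.8 and 35.1 CPM by P21. The ages did not overlap. Its log2 fold change was 3.34 from P1 to P14 (SE 0.12, edgeR adjusted p = 1.44e-08) and -1.56 from P14 to P21 (SE 0.12, edgeR adjusted p = 2.78e-05). Cxcl16 (chr11:70453983-70459984) instead rose at both steps, from 17.9, 18.1 and 6.65 CPM in the P1 libraries to 47.3, 49.1 and 49.3 CPM by P14 and 106 and 119.8 CPM by P21. The low P1 value belongs to replicate 3, the library that stood apart, and 18.3% of the Cxcl16 exon sequence overlaps Zmynd15 on the opposite strand, with no statement that reads were counted by strand. The log2 fold changes were 1.74 (SE 0.29, edgeR adjusted p = 0.000396) and 1.27 (SE 0.29, edgeR adjusted p = 0.00853). Cxcr6, the receptor of Cxcl16, lay at or under 1.22 CPM in every development library and was called at neither step.

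**Figure D2:**
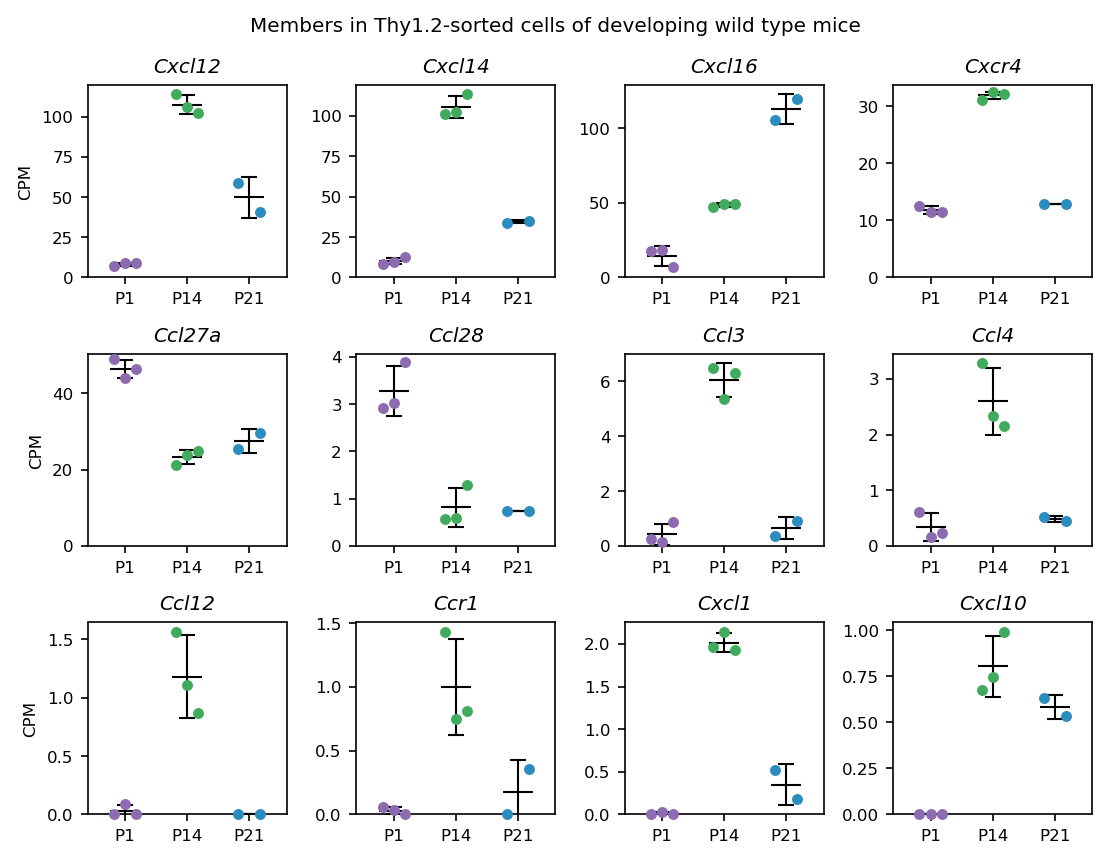
Level in CPM (linear axes from 0) of 12 members at P1, P14 and P21, with 1 point per library, a line at the mean and bars of 1 SD. Cxcl12, Cxcl14, Cxcr4, Ccl3, Ccl4, Ccl12, Ccr1 and Cxcl1 are highest at P14, Cxcl16 is highest at P21, and Ccl27a and Ccl28 are highest at P1.

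The inflammatory CC ligands were nearly absent at P1, rose at P14 and were low again at P21. Their summed level was 1.43 ± 0.502 CPM in P1 libraries, 14.7 ± 0.890 CPM by P14 and 3.11 ± 0.100 CPM by P21 (SD, n = 3, 3 and 2). Of 13, 7 were tested and 6 of these were called higher at P14 than at P1, against 33.6% of all genes tested. From P14 to P21, 4 of the 7 were called lower, against 19.3% of genes. A ligand that passed the filter only through P14, where it is high, had to differ. None of the 7 had at least 10 counts in every development library. Ccl3 lay at 0.235, 0.154 and 0.863 CPM in the P1 libraries, at 6.50, 5.36 and 6.30 CPM in those of P14 and at 0.355 and 0.920 CPM in those of P21. Every P14 library was above every other development library. The log2 fold changes of Ccl3 were 3.80 (SE 0.49, edgeR adjusted p = 7.36e-05) and -3.19 (SE 0.55, edgeR adjusted p = 0.00183). Ccl4, a close relative of Ccl3, lay at 0.618, 0.154 and 0.230 CPM, then 3.29, 2.34 and 2.16 CPM, then 0.519 and 0.445 CPM. Its log2 fold changes were 2.91 (SE 0.45, edgeR adjusted p = 0.000256) and -2.36 (SE 0.50, edgeR adjusted p = 0.00569). Ccl12 had 3 counts over the P1 libraries, 126 over the P14 libraries and 0 over the P21 libraries. The ratio of P14 to P1, per scaled library size, was 39.6 (95% counting interval 13.3 to 195, edgeR adjusted p = 0.000823), and the level at P21 was at least 27.5-fold lower than at P14 against a floor of 3 counts over the group (edgeR adjusted p = 0.00309).

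Ccl2, Ccl6 and Ccl9, ligands that attract monocytes and other myeloid cells, were higher at P14 than at P1, with log2 fold changes of 3.43, 3.53 and 3.79 (edgeR adjusted p from 0.000840 to 0.00161). All had low levels, and Ccl2 lay at 0.782, 1.27 and 1.32 CPM at P14 against at most 0.173 CPM at P1. Ccl6 lay at 1.59, 1.59 and 1.80 CPM at P14 and fell to 0.0547 and 0.178 CPM by P21 (log2 fold change -3.76, SE 0.87, edgeR adjusted p = 0.00892), whereas Ccl2 and Ccl9 were not called between P14 and P21 (log2 fold changes -1.54 and -0.69, adjusted p = 0.105 and 0.420). Ccl5, a ligand made by T cells among others, stayed at or under 0.505 CPM in development and was called at neither step. Counting errors of levels near 0 are large, and these intervals and floors cover counting error only.

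Among CC receptors, Ccr1 and Ccr7 rose from P1 to P14. Ccr1, a receptor of myeloid cells, had 108 counts over the P14 libraries against 3 over the P1 libraries, a ratio of 34.0 per scaled library size (95% counting interval 11.3 to 167, edgeR adjusted p = 0.00294). Ccr7, which brings dendritic cells and naive T cells to lymph nodes, had 22 counts against 3, a ratio of 6.92 (2.08 to 36.1, edgeR adjusted p = 0.0367). This call was lost in 8 of 16 alternative settings. Ccr2 stayed at or under 0.297 CPM in every development library, too low to be tested, while its ligands Ccl2 and Ccl12 rose at P14.

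Among other ligands with low levels, Cxcl1 rose from P1 to P14 and fell by P21, and Cxcl10 rose from P1 to P14. Cxcl1, an ELR ligand of the neutrophil receptor Cxcr2, had 1 count over the P1 libraries and 215 over the P14 libraries, a ratio of 203 (95% counting interval 36.0 to 8050, edgeR adjusted p = 1.16e-05). At P14 it lay at 1.97, 2.14 and 1.93 CPM and at P21 at 0.519 and 0.178 CPM (log2 fold change -2.45, SE 0.51, edgeR adjusted p = 0.00534). Cxcr2 itself was at 0 in all P14 libraries. Cxcl10, an interferon-induced ligand of Cxcr3, had 0 counts at P1 and 87 at P14, at least 27.4-fold higher against a floor of 3 counts over the group (edgeR adjusted p = 0.000123). It lay at 0.674, 0.747 and 0.991 CPM at P14 and at 0.629 and 0.534 CPM at P21, a difference that was not called (log2 fold change -0.41, edgeR adjusted p = 0.566).

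The ligands of Ccr10 ran against the rest of the family. Ccl27a lay at 49.0, 44.1 and 46.3 CPM in the P1 libraries, at 21.2, 23.9 and 24.8 CPM by P14 and at 25.4 and 29.7 CPM by P21. It fell from P1 to P14 (log2 fold change -1.03, SE 0.09, edgeR adjusted p = 3.91e-06) and was slightly higher at P21 than at P14 (log2 fold change 0.30, SE 0.10, edgeR adjusted p = 0.0432), a call kept in 7 of 17 alternative settings. Ccl28, an epithelial ligand of Ccr10, lay at 2.91, 3.02 and 3.88 CPM in the P1 libraries, at 0.566, 0.585 and 1.30 CPM by P14 and at 0.738 and 0.742 CPM by P21, and fell by 2.01 on the log2 scale from P1 to P14 (SE 0.33, edgeR adjusted p = 0.000406). Ccr10 ranged from 1.72 to 3.42 CPM in development and was called at neither step. Ccl25, the ligand of Ccr9 in thymus and gut, ranged from 8.63 to 12.2 CPM and was not called either (log2 fold changes 0.13 and 0.28, edgeR adjusted p = 0.341 and 0.116).

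Markers of several other cell types moved over the same ages. Of all genes tested, 33.6% were called in each direction from P1 to P14. From P14 to P21, 14.6% were called higher and 19.3% lower. All 14 listed microglia and macrophage markers rose from P1 to P14 and all 14 fell from P14 to P21, with shares of counts of 0.00304% to 0.00475% at P1, 0.0392% to 0.0411% at P14 and 0.0102% to 0.0123% at P21, and none of them was at 0 at any age. All 10 pericyte and smooth muscle markers were likewise higher and then lower, at 0.0211% of counts at P1, 0.465% at P14 and 0.0770% at P21. Endothelial markers were higher at P14 in 10 of 10 cases and lower at P21 in 7 of 10, and Müller glia markers were higher at P14 in 10 of 10 and higher again at P21 in 5 of 10. Of 15 RGC markers, 14 were lower at P14 than at P1. The part of these cells in the changes of the chemokine genes was not tested. Without P1 replicate 3, 15 members were higher at P14, 14 of them the same members, and the same count of 2 was lower.

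Genes that act beside or upstream of chemokines were followed as lists, to be read against the 33.6% of all genes called in each direction from P1 to P14 and the 14.6% called higher and 19.3% called lower from P14 to P21. Of 8 tested genes of other chemokine families, atypical receptors and scavengers, 6 rose and 1 fell from P1 to P14, and 1 rose and 6 fell from P14 to P21. Cx3cr1, the fractalkine receptor of microglia, changed by 4.06 and then -1.92 on the log2 scale, and Ackr3, which scavenges Cxcl12, by 4.91 and then -2.50 (edgeR, adjusted p from 8.09e-09 to 9.60e-05). Ackr1, which binds chemokines on venules and red cells, was the gene that was higher at P21 (log2 fold change 1.12). Of 17 tested genes that induce chemokines through NF-kB, 15 were higher and 0 lower at P14 (log2 fold changes of 1.74 for Myd88, 1.29 for Nfkbia, 1.23 for Nfkb1 and 0.92 for Rela), and 1 was higher and 6 lower at P21, Tnf among the latter. No gene of this list was lower at P14 at an unadjusted p under 0.05 in edgeR or at an adjusted p in DESeq2 and limma-voom. Of 10 tested genes of interferon signaling, 6 were higher and 3 lower at P14, and 2 were higher and 2 lower at P21. Of 34 tested signaling genes below chemokine receptors, 16 were higher and 13 lower at P14, and 6 were higher and 18 lower at P21. Among proteases that cut or shed chemokines, 4 of 6 were higher and 1 lower at P14, including Mmp14 at 2.62 and Dpp4 at 2.08 on the log2 scale.

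Between datasets, most members with a count were higher in the injured adults than at any developmental age, by widely different margins. In 30 of the 49 members with a count, all 5 knockout libraries lay above all 8 development libraries, and in 2 (Ccl27a and Cxcr4) they lay below, against 15.2% and 16.8% of 35338 genes. Dataset, age, injury and depth change together between these libraries and cannot be told apart, so no test was made. The 30 hold 10 of 13 inflammatory CC ligands, 9 of 11 CC receptors, both interferon-induced CXC ligands and the lymphocyte receptors Cxcr3, Cxcr5 and Cxcr6. Ccr2, the receptor that brings monocytes into tissue, lay at 307, 234 and 320 CPM in AAV2-GFP and at 0.109 and 0.297 CPM at P21, a ratio of means of 1415. The ratio of AAV2-GFP to P21 was 430 for Ccl6, 418 for Ccr1, 370 for Ccl2 and 122 for Ccl3. For Ccl25, also among the 30, it was 1.89. Some of the 30 stayed low in the adults, such as Ccl8 with a mean of 0.595 CPM in AAV2-GFP. P21 was above AAV2-GFP for Cxcr4 (ratio 4.12), Cxcl16 (2.04), Ccl27a (2.00) and Cxcl12 (1.90). The receptors Ccr2, Ccr3, Ccr4, Ccr6, Ccr7, Ccr8, Cxcr3 and Cxcr5 stayed at or under 0.416 CPM in all 8 development libraries. By position, the 30 hold all 5 ligands of the Ccl5 to Ccl4 cluster and 4 of the 6 of the Ccl2 cluster, but none of the 5 genes of the Ccl27a to Ccl21a cluster.

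**Figure D3:**
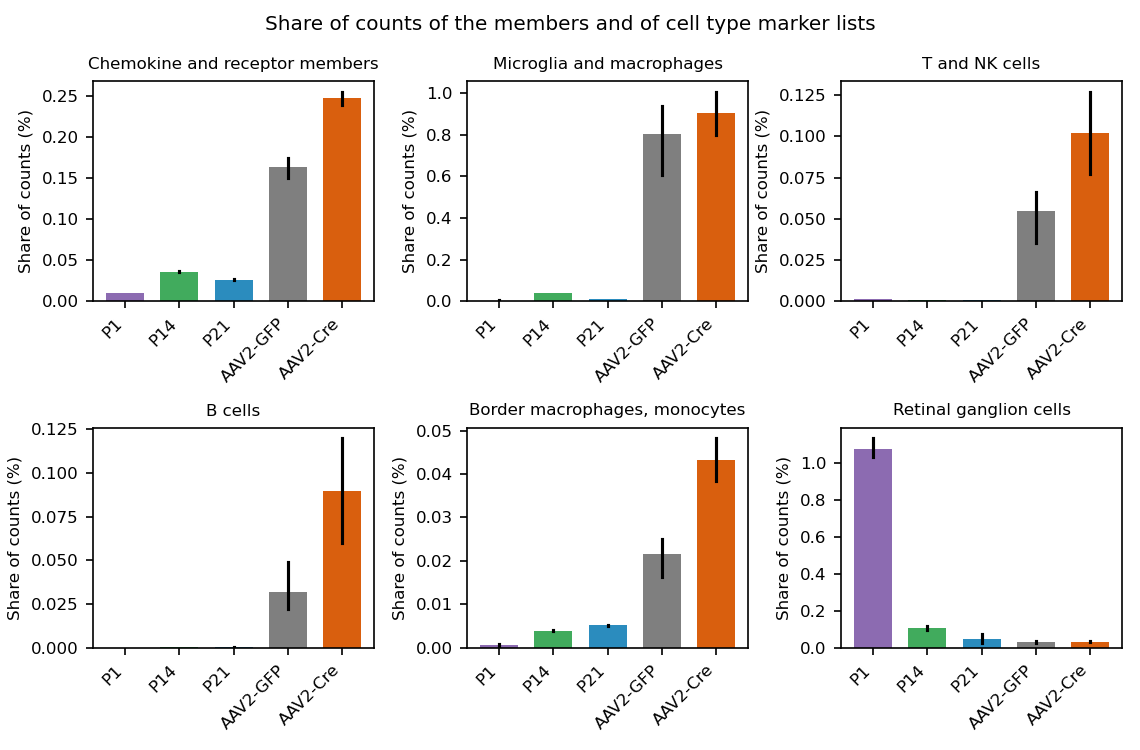
Share of library counts, in percent, taken by the 52 members and by 5 lists of cell type markers in the 5 groups. Bars show the mean over libraries and black lines run from the lowest to the highest library. The members and the microglia and macrophage, T and NK cell, B cell, and border macrophage and monocyte lists are highest in the 2 groups of injured adults, and the RGC list is highest at P1.

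Immune markers were also high in those libraries. Microglia and macrophage markers took 0.605% to 0.936% of counts in AAV2-GFP and 0.798% to 1.00% in AAV2-Cre, and rod markers 3.30% ± 0.287 (SD, n = 3) and 2.12% ± 1.08 (SD, n = 2), all above the development libraries. T and NK cell markers took 0.0352% to 0.0664% in AAV2-GFP against at most 0.00147% at P1, where Cd3d and Cd3g, parts of the T cell receptor complex, were at 0. B cell markers took 0.0223% to 0.0489% in AAV2-GFP, and 5 of the 10 were at 0 at P21. The part of these cells in the levels of the members was not tested.

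The knockout comparison was designed to ask what loss of Kdm6a changes in adult cells labelled RGCs after injury. In these libraries Kdm6a counts did not check that loss and RGC markers were scarce. In separate experiments the study reported lower Kdm6a mRNA, by real-time PCR, and lower Kdm6a protein, by staining, in RGCs after AAV2-Cre. The ligands Cxcl10, Cxcl13, Ccl22, Ccl5 and Ccl7 and the receptors Cxcr3, Cxcr5, Ccr7 and Ccr6 were higher in AAV2-Cre. Of 41 members tested, 9 were higher in AAV2-Cre than in AAV2-GFP and 0 lower, against 1.33% of 18395 genes called higher and 0.294% called lower by edgeR. At an unadjusted p under 0.05, edgeR gave 18 higher and 1 lower (Ccl25), against 8.57% and 7.90% of genes. DESeq2 called 13 higher and 0 lower, against 4.68% and 3.12% of 16609 genes, and limma-voom 9 higher and 0 lower, against 1.96% and 0.522% of genes. DESeq2 called 4 members that edgeR did not, Cxcl12 (log2 fold change 0.78, adjusted p = 0.00546), Ccr9 (1.69, adjusted p = 0.00990), Ccl4 (1.17, adjusted p = 0.00993) and Ccr1 (0.65, adjusted p = 0.0328). The other 11 members were too low to be tested. The median log2 fold change of the tested members was 0.62, against -0.03 over all genes tested. In 21 of them both AAV2-Cre libraries lay above all AAV2-GFP libraries and in 2 both lay below, against 19.5% and 15.6% of the genes tested. Without either AAV2-Cre library, 0 members were called, and only 8 and 5 genes in all were called higher, where the variation of the lone library was taken from AAV2-GFP. Without AAV2-GFP replicate 2, 3 members were called (Ccr7, Cxcl10 and Ccl22).

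The interferon-induced ligand Cxcl10 (chr5:92346638-92348889) had the largest fold change of the called members. It lay at 45.8 and 41.9 CPM in AAV2-Cre and at 7.25, 6.35 and 12.6 CPM in AAV2-GFP (log2 fold change 2.28, SE 0.31, edgeR adjusted p = 0.0147). Its receptor Cxcr3 (chrX:101731535-101734269), found on activated T and NK cells, lay at 46.4 and 47.2 CPM against 12.1, 14.9 and 17.2 CPM (log2 fold change 1.62, SE 0.22, edgeR adjusted p = 0.0162). Neither gene overlapped between groups, and the ligand and its receptor rose together. Cxcl9, the other interferon-induced ligand of Cxcr3, lay at 60.5 and 85.9 CPM against 21.5, 18.3 and 56.3 CPM. It was not called, with AAV2-GFP replicate 3 close to AAV2-Cre (log2 fold change 1.15, SE 0.43, edgeR adjusted p = 0.229).

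Cxcl13 and its receptor Cxcr5, which gather B cells into follicles, formed a second such pair. Cxcl13 (chr5:95956951-95961068) lay at 97.9 and 106 CPM in AAV2-Cre and at 25.5, 23.7 and 42.1 CPM in AAV2-GFP (log2 fold change 1.70, SE 0.25, edgeR adjusted p = 0.0184). Cxcr5 (chr9:44511787-44561877) lay at 39.2 and 29.2 CPM against 12.9, 8.10 and 9.99 CPM (log2 fold change 1.69, SE 0.27, edgeR adjusted p = 0.0231). Both were apart in every library. The other homeostatic CXC ligands were not called by edgeR. Cxcl12, which DESeq2 called, lay at 47.6 and 44.4 CPM against 29.3, 23.5 and 26.1 CPM without overlap (log2 fold change 0.77, SE 0.19, edgeR adjusted p = 0.0813). Cxcl14, at 42.8 and 38.5 CPM against 33.3, 40.8 and 66.2 CPM, overlapped between groups (log2 fold change -0.24, edgeR adjusted p = 0.748), as did Cxcr4, at 3.56 and 4.54 CPM against 2.08, 2.78 and 4.52 CPM (log2 fold change 0.33, edgeR adjusted p = 0.819). Cxcl16, at 80.8 and 88.4 CPM against 44.0, 56.0 and 66.0 CPM, was not called (log2 fold change 0.57, edgeR adjusted p = 0.210). Its receptor Cxcr6, found on T cells, lay at 58.6 and 27.6 CPM against 18.5, 37.4 and 31.4 CPM, with overlap (log2 fold change 0.52, edgeR adjusted p = 0.556).

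**Figure D4:**
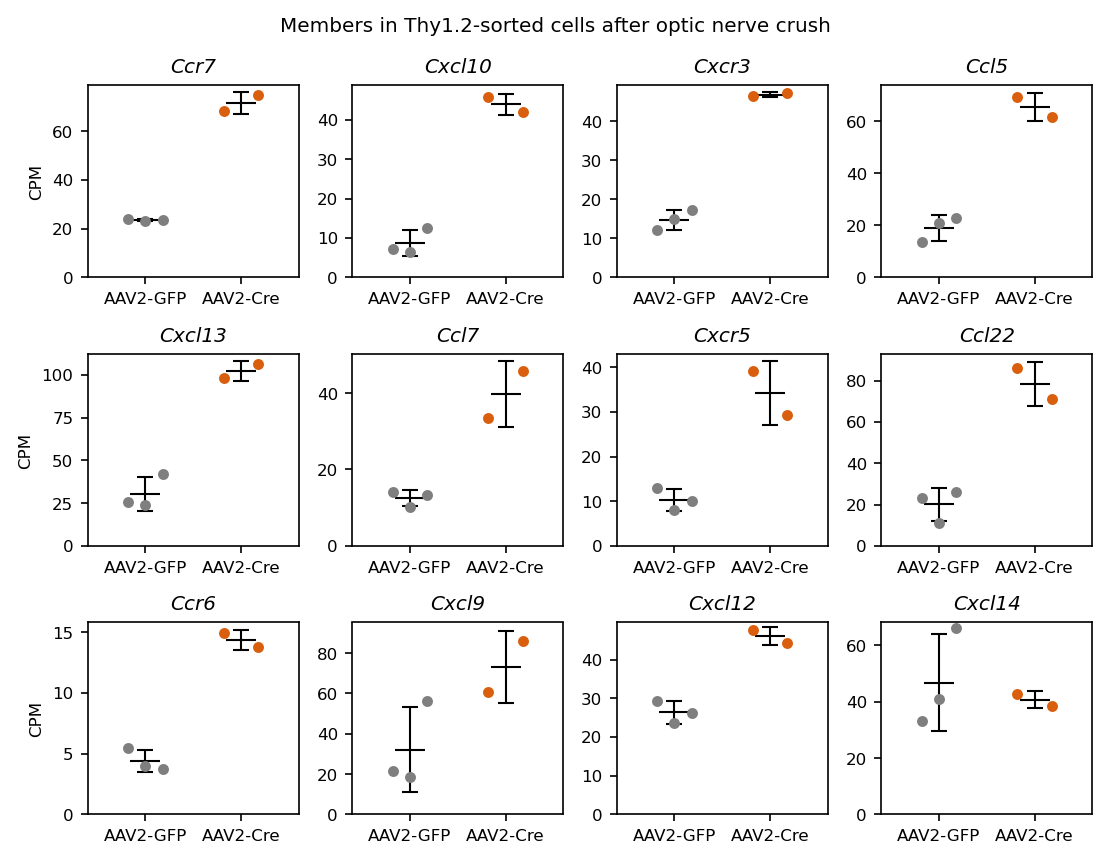
Level in CPM (linear axes from 0) in AAV2-GFP (3 libraries) and AAV2-Cre (2 libraries) for the 9 members called higher in AAV2-Cre and for Cxcl9, Cxcl12 and Cxcl14, with 1 point per library, a line at the mean and bars of 1 SD. The 9 called members do not overlap between groups, whereas Cxcl14 does.

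Among CC ligands, Ccl22, Ccl5 and Ccl7 rose. Ccl22 (chr8:94745590-94751699), made by dendritic cells and macrophages, lay at 85.9 and 70.9 CPM in AAV2-Cre and at 23.3, 11.2 and 25.9 CPM in AAV2-GFP (log2 fold change 1.93, SE 0.31, edgeR adjusted p = 0.0247). Its receptor Ccr4 lay at 6.90 and 2.49 CPM against 1.08, 5.44 and 1.14 CPM, with overlap (log2 fold change 0.81, edgeR adjusted p = 0.690). Ccl5 (chr11:83525778-83530518) lay at 69.3 and 61.8 CPM against 13.4, 20.9 and 22.8 CPM, with every AAV2-Cre library above every AAV2-GFP library (log2 fold change 1.74, SE 0.25, edgeR adjusted p = 0.0174). Ccl7 (chr11:82045712-82047525), a ligand of Ccr2, lay at 33.5 and 45.8 CPM against 14.2, 10.2 and 13.4 CPM (log2 fold change 1.62, SE 0.24, edgeR adjusted p = 0.0189). The other Ccr2 ligands in the same cluster were more abundant and not called, with Ccl2 at 171 and 267 CPM against 141, 117 and 152 CPM (log2 fold change 0.64, edgeR adjusted p = 0.168) and Ccl12 at 69.2 and 132 CPM against 61.6, 66.5 and 57.2 CPM (log2 fold change 0.66, edgeR adjusted p = 0.238). In both, AAV2-Cre replicate 2 was well above replicate 1. Ccr2, at 389 and 426 CPM against 307, 234 and 320 CPM, was not called either (log2 fold change 0.47, edgeR adjusted p = 0.200).

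Ccl3 lay at 88.4 and 105 CPM against 49.1, 99.4 and 84.3 CPM, Ccl4 at 27.7 and 42.6 CPM against 11.6, 18.4 and 15.7 CPM, and Ccl9 at 82.6 and 87.4 CPM against 68.5, 85.2 and 57.7 CPM. These myeloid ligands were not called by edgeR (adjusted p = 0.706, 0.0875 and 0.641), and DESeq2 called Ccl4. Ccl25, at 14.9 and 15.9 CPM against 21.6, 20.6 and 26.7 CPM, was lower in every AAV2-Cre library without being called (log2 fold change -0.62, SE 0.24, edgeR adjusted p = 0.236), and its receptor Ccr9, at 66.1 and 33.8 CPM against 18.7, 20.6 and 6.14 CPM, was higher in every one and was called by DESeq2 but not by edgeR (log2 fold change 1.68, SE 0.47, edgeR adjusted p = 0.122). Of the exons of Ccr9, 18.8% overlap another gene on the opposite strand. Ccl27a lay at 13.3 and 13.6 CPM against 15.4, 13.8 and 12.1 CPM, with overlapping groups (log2 fold change -0.08, edgeR adjusted p = 0.921). ELR ligands stayed low. Cxcl2, which binds Cxcr2, lay at 0.726 and 2.43 CPM against 0.934, 0.665 and 0.843 CPM, and Cxcl1 reached at most 1.15 CPM. Cxcl3 had 0 counts in AAV2-Cre and 26 in AAV2-GFP, at least 5.42-fold lower against a floor of 3 counts over the group, but was at 0 in AAV2-GFP replicate 1 too and was not called (edgeR adjusted p = 0.307).

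The receptors Ccr7 and Ccr6 rose with few counts on the genes of their own ligands. Ccr7 (chr11:99144196-99155077) had the smallest p of the family, at 68.3 and 74.7 CPM in AAV2-Cre and 23.8, 23.0 and 23.5 CPM in AAV2-GFP (log2 fold change 1.57, SE 0.17, edgeR adjusted p = 0.00698). The AAV2-GFP libraries were close together and AAV2-Cre far above them. Its ligands Ccl19 and Ccl21a reached at most 0.256 and 1.81 CPM, but near-identical copies of Ccl21 can split reads, so the Ccl21a level is uncertain. Ccr6 (chr17:8236043-8257141), a receptor of B cells and some T cells, lay at 15.0 and 13.7 CPM against 5.46, 3.99 and 3.73 CPM (log2 fold change 1.67, SE 0.32, edgeR adjusted p = 0.0442), and its ligand Ccl20 reached at most 0.192 CPM. The Ccr6 call was lost in 6 of 14 alternative settings, which were the replicate block (adjusted p = 0.111) and the omission of any of the 5 libraries (adjusted p from 0.0662 to 0.335). Ccr1 lay at 103 and 135 CPM against 85.6, 74.5 and 63.2 CPM and was called by DESeq2 but not by edgeR (log2 fold change 0.64, edgeR adjusted p = 0.138). Ccr8 and Ccr10 overlapped between groups and were not called. By role, the calls were 2 of 10 tested inflammatory CC ligands, 1 of 7 homeostatic CC ligands, 2 of 10 CC receptors and 0 of 2 ELR ligands. They were also 1 of 5 homeostatic CXC ligands, 1 of 2 interferon-induced ligands and 2 of 5 CXC receptors. Over all genes tested, edgeR called 1.33% higher. Roles of 2 to 10 tested members are too small to be compared with each other. Neither ELR ligand reached an unadjusted p of 0.05 in edgeR, and DESeq2 and limma-voom called neither.

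**Figure D5:**
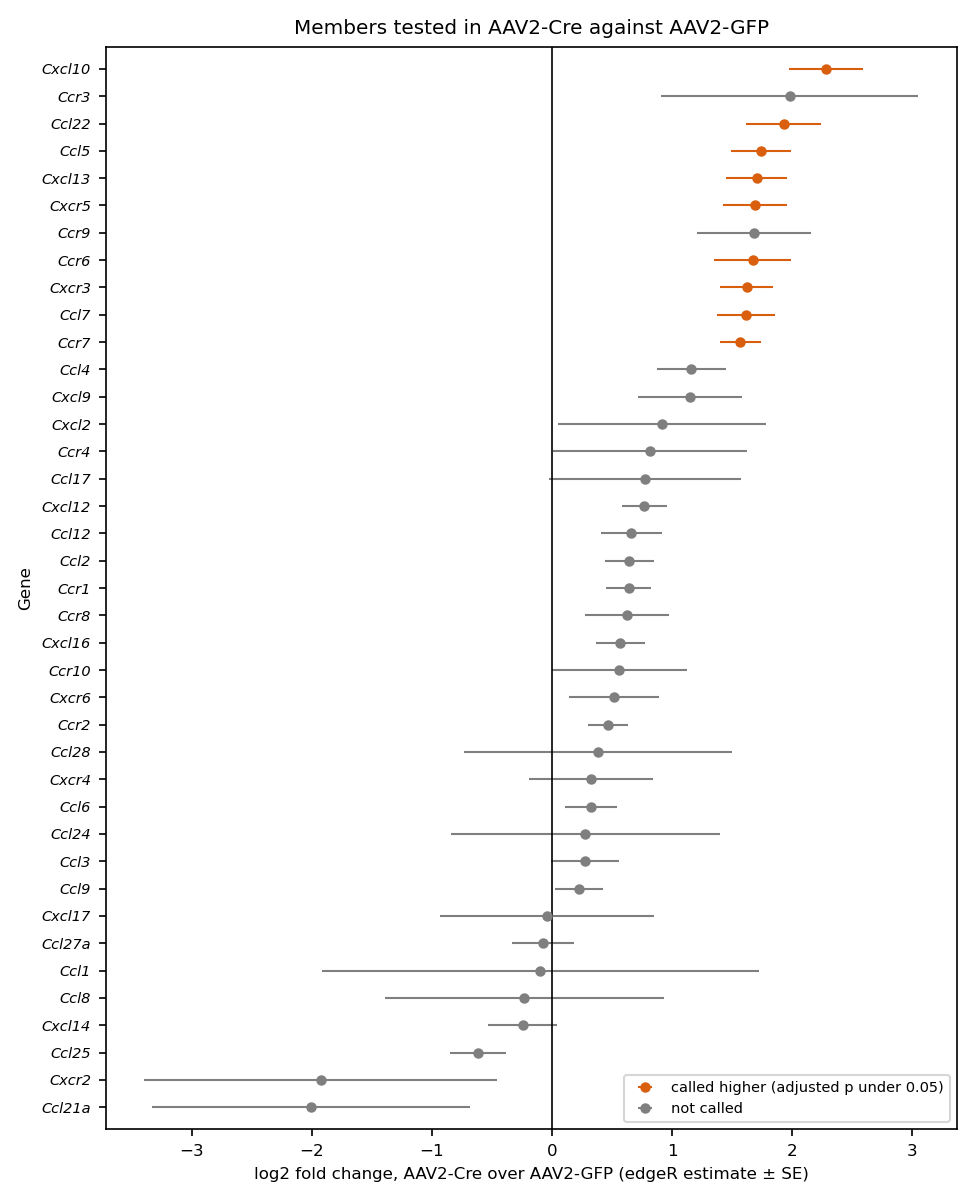
Log2 fold change of AAV2-Cre over AAV2-GFP from edgeR, with bars of 1 standard error, for 39 tested members with counts in both groups, with orange points for the 9 members called and gray points for the others. The called members lie between 1.57 and 2.28, and abundant members such as Ccr2 (0.47) and Ccl3 (0.27) lie nearer to 0.

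Some immune markers moved the same way. Their counts are to be read against all genes tested, of which edgeR called 1.33% higher and 0.294% lower. At an unadjusted p under 0.05 edgeR had 8.57% of genes higher, and DESeq2 and limma-voom called 4.68% and 1.96% higher. Listed B cell markers took 0.0599% to 0.120% of counts in AAV2-Cre against 0.0223% to 0.0489% in AAV2-GFP, and 2 of 10 were called higher (Cd79a, log2 fold change 1.63, edgeR adjusted p = 0.00827, and Ms4a1, 1.58, adjusted p = 0.0477). T and NK cell markers took 0.0772% to 0.127% against 0.0352% to 0.0664%, with a median log2 fold change of 1.01 over 16 markers. None of them was called by edgeR, 13 were higher at an unadjusted p under 0.05, and DESeq2 called 9 and limma-voom 2. Border macrophage and monocyte markers took 0.0384% to 0.0482% against 0.0163% to 0.0251%, and 2 of 7 were called higher (Ly6c2, log2 fold change 2.13, edgeR adjusted p = 0.00709, and Plac8, 1.57, edgeR adjusted p = 0.0174). The median log2 fold change of the 7 was 0.13, and Mrc1, at 12.3 and 14.0 CPM against 27.9, 24.5 and 32.7 CPM, and Chil3, at 3.34 and 3.52 CPM against 6.25, 7.44 and 5.18 CPM, lay lower in both AAV2-Cre libraries without being called by edgeR (adjusted p = 0.0543 and 0.301). Dendritic cell markers had a median of 1.09 over 6, none called by edgeR, 3 higher at an unadjusted p under 0.05, 1 called by DESeq2 and 0 by limma-voom. Microglia and macrophage markers overlapped between groups in their summed share, at 0.798% to 1.00% of counts against 0.605% to 0.936%. Singly, C1qa, C1qb, Laptm5 and Aif1 lay above every AAV2-GFP library in both AAV2-Cre libraries, and Trem2 and Fcrls lay below. Of 14 only Fcrls was called, as lower (log2 fold change -2.30). None of these immune markers was at 0 over AAV2-GFP or over AAV2-Cre, and their part in the rise of the members was not tested.

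Over all genes tested, edgeR called 1.33% higher and 0.294% lower in AAV2-Cre. Among the genes that induce chemokines, those of interferon signaling were called most. Of 11 tested, 6 were higher in AAV2-Cre (Irf9, Irf8, Irf7 and Stat2 among them) and 0 lower, also at an unadjusted p under 0.05 and by DESeq2 and limma-voom. Irf9, a partner of Stat2 in the response to type I interferon, lay at 331 ± 18.7 CPM (SD, n = 2) against 132 ± 5.79 CPM (SD, n = 3), a log2 fold change of 1.28 (SE 0.14, edgeR adjusted p = 0.00698). Irf8, a factor of myeloid cells and B cells, rose by 1.15, Irf7 by 1.93 and Stat2 by 1.07 on the log2 scale (edgeR adjusted p = 0.00992, 0.0167 and 0.0269). Of 19 genes that act through NF-kB, 3 were higher, the cytokines Tnf (log2 fold change 1.31) and Il1b (1.08) and the adaptor Myd88 (0.89), with edgeR adjusted p of 0.0241, 0.0263 and 0.0280. Of 35 signaling genes below chemokine receptors 1 was called. Of 7 proteases, Dpp4, which trims and inactivates Cxcl10 and other ligands, was called (log2 fold change 1.11, edgeR adjusted p = 0.0433). Of 8 other chemokine, scavenger and atypical receptor genes 0 were called by edgeR, DESeq2 and limma-voom, and 1 (Ccrl2, log2 fold change 0.71) was higher at an unadjusted p under 0.05 in edgeR.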

How the data were processed

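Read quality was checked (FastQC 0.11.9), reads were trimmed (Trimmomatic 0.39), alignment to GRCm38 used HISAT2 2.2.1 and gene counting used featureCounts (Subread 2.0.3), all by the authors. Raw counts for 52550 genes, with no normalization, were deposited by the authors, and no column was left unused. Symbols came from GENCODE by Ensembl ID without the version (52403 matched, 147 not). Library preparation is not stated to mark strand, so reads of genes that overlap on opposite strands cannot be told apart.

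The 8 development and 5 knockout libraries were fitted separately in R 4.3.3 with edgeR 4.0.16 (TMM, filterByExpr, glmQLFit, glmQLFTest), and p-values were adjusted by Benjamini-Hochberg over all genes tested. A gene was called at an adjusted p under 0.05, at any fold. The study used DESeq2, here an alternative (1.42.0), as was limma-voom (limma 3.58.1). The CPM levels printed were scaled over all 13 libraries and mean values carry the SD. Ratios for groups with 1 to 3 counts carry a 95% counting interval, and fold bounds use a floor of 3 counts. Each replicate pair differed by more than sampling noise (chi-square per gene 3.77 to 36.9). The biological coefficient of variation was 0.109 in development and 0.340 in the knockout dataset. The fits were tested on simulated data. Per-library values are given for called members (up to 12 a comparison by p), the 3 highest members of each role and their partners. Pathway genes named are among the 4 with the smallest p of a list and comparison, or stand behind a count of 5 or fewer. Some genes that this rule names are not reported here. Markers, pathway lists and members were chosen with earlier results of these data known. Alternatives were other scaling, filters, tests and samples in the fit, a fold limit, a replicate block and each library left out.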

Additional observations from a re-analysis of the deposited data

How the results depend on the processing

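Leaving out each library in turn gave 14 to 15 members higher at P14 than P1 (median log2 fold change 2.88 to 3.30), 1 to 3 higher at P21 than P14 (median -1.24 to -0.76), and 0 to 9 higher in AAV2-Cre (median 0.47 to 0.76). In these fits 6459 to 7173 genes were higher at P14 than P1, of 20618 to 22173 tested. Without a P1 or P14 library, 2149 to 3751 genes were higher at P21 than P14. Without an AAV2-GFP library, 86 to 253 genes and 3 to 9 members were higher in AAV2-Cre. With at least 10 counts in every library, 9 members were tested in development. Of these, 4 were higher at P14 (median 0.75), against 36.9% of genes, and 3 lower at P21 (median -0.11), against 22.1%. Without a low-count filter the P14 median was 1.50 over 44 members, and 16 of 46 members were higher in AAV2-Cre. Calls over all genes rose too, to 969 of 28763 genes higher in AAV2-Cre, against 244 of 18395 with the filter. With all 13 libraries in 1 fit the P14 median was 1.53 over 43 members. Under no scaling beyond library size and under the fold limit, 1 member was higher at P21, as were 2326 and 563 of 20890 genes. Samples with the same replicate number did not deviate together (correlations -0.0413 to 0.0168), so the numbers were not taken as pairs. With the replicate block 14 members were higher at P14 and 1 was higher at P21 (median -1.05), as were 6721 and 2049 of 20890 genes. In AAV2-Cre 8 members and 232 of 18395 genes were higher, with Ccl7 and Ccr6 lost and Cxcl9 gained (log2 fold change 1.82, edgeR adjusted p = 0.0181). Cxcr6 at P21 over P14 turned from 2.15 to -0.44 without P21 replicate 2 and was called at 3.03 (adjusted p = 0.0111) without replicate 1, where the cause was not tested. For 29 members, 713 of 788 values under an alternative kept call and direction, 48 lost and 26 gained a call and 1 turned. These were the members at an unadjusted p under 0.05 in edgeR in a comparison, called or not. Some settings left out a library outside the comparison. Each of the 9 members called in AAV2-Cre lost its call in 2 to 6 of 14 settings, 2 of which left 1 AAV2-Cre library. The count of members above every development library was 26 to 31, and in the main setting 15.2% of genes lay above. No member was called lower in AAV2-Cre under any setting run.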
